A study of Mus musculus with 24 samples.

Results

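Anti-CD3 is an antibody that binds the CD3 chains of the T cell receptor complex and triggers it without antigen, and propyzamide is a herbicide that blocks the assembly of plant microtubules. The comparison here is between the 2 times after anti-CD3 in mice given propyzamide: 4 libraries taken 24 h after anti-CD3 and 4 libraries taken 3 h after it, 8 of the 24 libraries of the study. Members were chosen by their label alone. All 8 come from male C57BL/6 mice 11 weeks old that received propyzamide and anti-CD3, so both groups share the herbicide, the antibody, the strain, the sex and the age and differ in the time. The study also has the same 2 times with vehicle, and unstimulated mice of both treatments, each with 4 libraries. By its title the study concerns T cells and a model of inflammatory bowel disease; which tissue or sorted population was taken, at what dose and by what route, is not stated in the labels. Libraries are numbered within a group by record order, and nothing says which animals they came from, so p-values measure the spread between these samples, which may be technical.

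When the T cell receptor is triggered, the kinase Lck phosphorylates the CD3 and zeta chains, and calcium, MAP kinase and NF-kappaB signalling turn on immediate early genes, then cytokines. Interferon-gamma from activated T cells and natural killer cells acts on neighbouring cells, where it raises guanylate-binding GTPases, MHC class I and, through Ciita, MHC class II. Activated T cells that go on to divide raise glycolysis, replication factors, ribosomes and tubulin. In mice, systemic anti-CD3 also releases a burst of cytokines and injures the epithelium of the small intestine within hours.

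The 8 libraries held little messenger RNA, and 2 of them stood apart. Total estimated counts ran from 737297 to 1309118 in 6 libraries, of which 40841 to 88949, or 5.44% to 8.71%, lay in named protein-coding genes. Replicate 3 at 24 h had 9812102 counts, 10.3 times the median of the other 7, with 30.5% in named protein-coding genes. Replicate 3 at 3 h had 438519 counts, with 17887 in named protein-coding genes (4.08%), the fewest of the 8. The paired gene models Gm10800 and Gm10801, which hold repeat sequence, made up 25.9% of replicate 3 at 24 h and 49.4% to 55.5% of each other library. Gene groups below are given with all 8 libraries and without both replicates 3, which leaves 3 against 3. Levels are CPM, counts scaled to library size by TMM, edgeR's trimmed mean of M values. The TMM factor was 3.90 for replicate 3 at 24 h and 0.825 to 1.14 for the other 7.

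**Figure D1:**
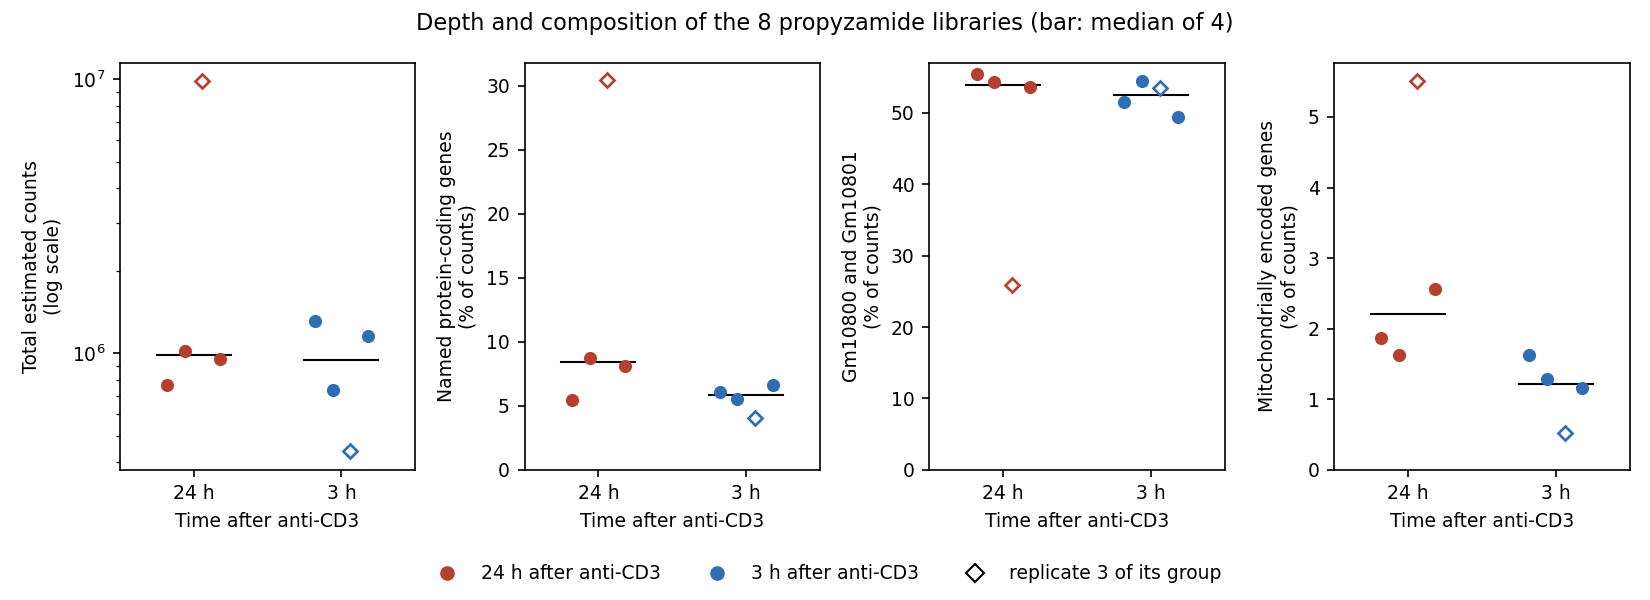
Total estimated counts (log axis) and the percent of counts in named protein-coding genes, in Gm10800 and Gm10801, and in mitochondrially encoded genes, for each of the 8 libraries, 24 h left of 3 h, with the median of 4 as a bar. Replicate 3 at 24 h (open red diamond) lies at 9812102 counts and 30.5% named genes, apart from its group, and replicate 3 at 3 h (open blue diamond) has the fewest counts.

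The 3 shares were compared between the times by a two-sided exact permutation test, whose smallest p is 0.0286 for 4 against 4 and 0.1 for 3 against 3. No adjusted p was under 0.05, which does not show that the shares were alike. Named protein-coding genes held 13.2% ± 11.6 at 24 h, against 5.59% ± 1.10 at 3 h (SD, n = 4 each, exact permutation p = 0.114, adjusted over the 3 shares 0.171). Mitochondrially encoded genes held 2.89% ± 1.79 at 24 h, against 1.15% ± 0.461 at 3 h (SD, n = 4 each, exact permutation p = 0.0571, adjusted 0.171). Gm10800 and Gm10801 held 47.3% ± 14.3 at 24 h, against 52.2% ± 2.23 at 3 h (SD, n = 4 each, exact permutation p = 0.914, adjusted 0.914). Without both replicates 3 the named share was 7.42% ± 1.74 at 24 h, against 6.09% ± 0.537 at 3 h (SD, n = 3 each), and the exact permutation p was 0.4, in a design that cannot pass 0.05.

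Transcripts of several cell types were present, with few of T cells. Cd3e, a CD3 chain of the receptor complex, had 3, 10, 313 and 8 counts at 24 h, against 0, 1, 0 and 0 counts at 3 h. Cd3d, another CD3 chain, had 4, 6, 280 and 6 counts at 24 h, against 8, 2, 2 and 6 counts at 3 h. Cd3g, a further CD3 chain, had 1, 6, 239 and 4 counts at 24 h, against 11, 3, 0 and 0 counts at 3 h. Replicate 3 at 24 h held most of the counts of each chain. In the other 6 libraries together Cd3e had 21 counts at 24 h, against 1 count at 3 h, while Cd3d had 16 counts at either time and Cd3g had 11 counts at 24 h, against 14 counts at 3 h. Cd8a, the coreceptor of killer T cells, had 16 counts at 24 h, against 12 counts at 3 h in those 6 libraries. Higher at 24 h in the same libraries were Cd4, another coreceptor, with 18 counts, against 6 counts at 3 h, and Cd247, the zeta chain, with 21 counts, against 8 counts. Trac, a constant region of the receptor, had 11 counts at 24 h, against 2 counts at 3 h. Of the 20 genes in the list of T cell receptor complex and signalling, 5 passed the filter on low counts. Ms4a1, which encodes the B cell surface protein CD20, had 4, 38, 608 and 36 counts at 24 h, against 11, 2, 3 and 26 counts at 3 h. Fabp1, which carries fatty acids in enterocytes, had 4, 7, 3594 and 1 counts at 24 h, against 37, 22, 0 and 33 counts at 3 h. The label of T cells thus stands beside low CD3 counts and transcripts of B cells and enterocytes, and in bulk RNA fewer cells of a type and less RNA per cell cannot be told apart.

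At 24 h compared with 3 h with propyzamide, named genes of lymphocytes, antigen presentation, protein folding, glycolysis and DNA replication were higher, and the eosinophil chemokine Ccl24, the membrane mucin Muc16 and the goblet cell products Zg16 and Tff3 were lower. Fewer of the higher genes were called without both replicates 3. These were 5 of 16 B cell, 1 of 5 T cell receptor and 0 of 9 naive lymphocyte genes. They were also 3 of 18 MHC class I and 1 of 11 MHC class II genes, 1 of 15 chaperones, 2 of 10 glycolytic enzymes and 2 of 13 replication genes. Ccl24 and Muc16 were also called without both replicates 3, and Zg16 and Tff3 were not. With only the 8 compared libraries in the fit, 0 of 2038 tested genes were called lower, Muc16 among those tested. The edgeR quasi-likelihood test with Benjamini-Hochberg adjustment, the source of every adjusted p of a gene given here, over 3799 genes called 579 (15.2%) at an adjusted p of 0.05 or less, 327 higher (8.61%) and 252 lower (6.63%). The direction followed the kind of gene. Among 2482 named protein-coding genes 308 were higher (12.4%) and 42 lower (1.69%), while among 1317 other gene models, numbered or repeat-bearing ones for the most part, 19 were higher (1.44%) and 210 lower (15.9%). Median log2 fold changes were 0.73 over named genes, -0.73 over the others and 0.15 over all tested genes. This split moved with the scaling: 56.5% of the calls were higher with TMM, 77.9% with RLE (the median-ratio scaling, under which the median of all genes was 0.48) and 76.1% in DESeq2. When named protein-coding genes were scaled and tested among themselves, 67 of 2490 were higher (2.69%) and 61 lower (2.45%). On that scale, fewer members of most lists below were called higher. The count was 2 of 4 T cell receptor genes, 5 of 17 B cell genes, 1 of 11 MHC class II genes and 4 of 19 MHC class I genes. It was 2 of 18 interferon-stimulated genes, 4 of 15 chaperones, 3 of 10 glycolytic enzymes and 3 of 11 replication genes. It was 1 of 9 tubulins and microtubule proteins, 0 of 7 naive lymphocyte genes, 0 of 13 immediate early genes and 0 of 24 nuclear-encoded genes of oxidative phosphorylation.

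Without both replicates 3, 50 genes were higher (1.32%) and 12 lower (0.316%), and 61 of these 62 were among the 579. The count also rested on single libraries. Leaving out replicate 1, 2, 3 or 4 at 24 h gave 873, 232, 244 or 278 called genes, and leaving out replicate 1, 2, 3 or 4 at 3 h gave 363, 379, 196 or 182. The median over named genes stayed positive in each of these 8 fits, and without both replicates 3 it was 0.43, beside -0.56 over the other gene models. That sign depended on the scaling. With named genes scaled among themselves the median was 0.14, and -0.04 with both replicates 3 also left out. The background for each list below is that of named genes, 12.4% called higher and a median of 0.73 (0.43 without both replicates 3). A gene with few counts at 3 h passed the low-count filter through other libraries, which partly sets its direction in any list. Overlap between the groups is told mostly for genes chosen by small p. Of the 88 called genes picked by the naming rule given at the end, 69 did not overlap. The share over all tested genes was not taken, so non-overlap is description and not further support.

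**Figure D2:**
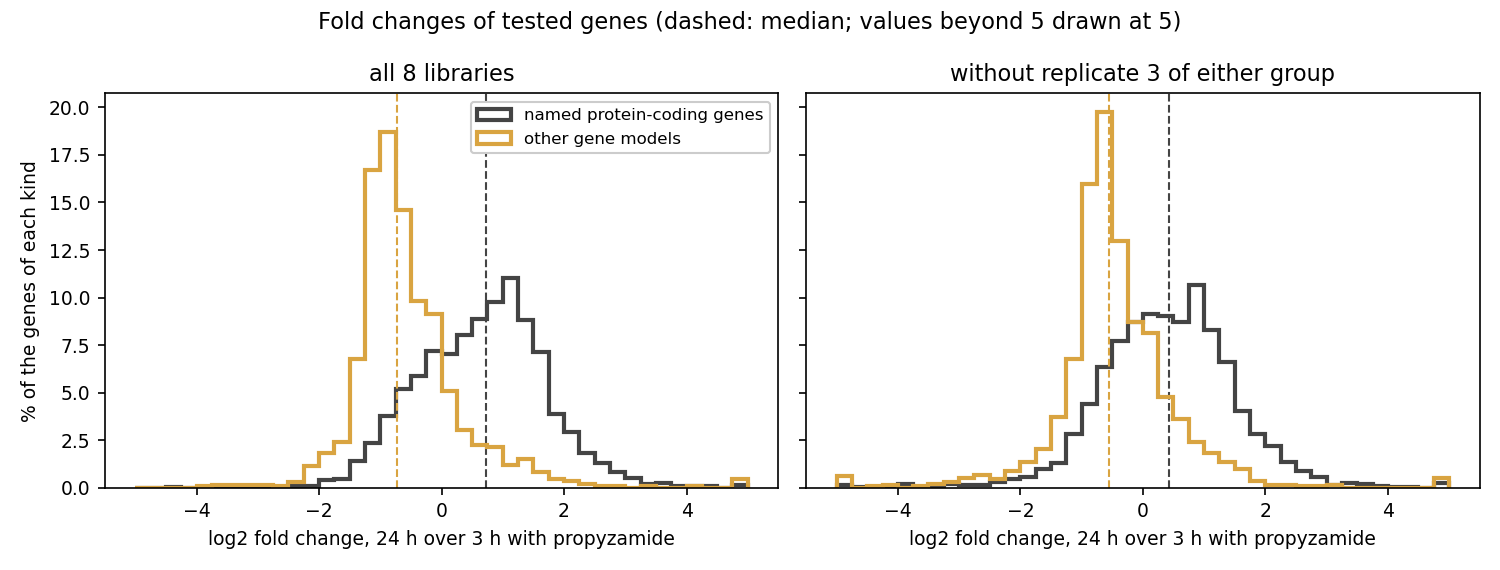
Percent of tested genes (y axis) by log2 fold change of 24 h over 3 h with propyzamide (x axis), for named protein-coding genes (dark) and other gene models (yellow), with all 8 libraries on the left and without both replicates 3 on the right, with medians as dashed lines. The named genes peak above 0 and the other models below 0, with medians of 0.73 and -0.73 on the left and 0.43 and -0.56 on the right.

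The 5 T cell receptor genes that could be tested were all on the higher side and 3 were called higher, with a median log2 fold change of 2.76 (2.78 without both replicates 3). Called members held 6 (Lck), 10 (Ptprcap) and 7 (Trbc2) counts at 3 h. They thus passed the low-count filter through other libraries. The shared direction and the median are partly set by that filter, so neither speaks for the list of 20 genes. Lck, the kinase that starts T cell receptor signalling (ENSMUSG00000000409.14, chromosome 4, 129548344 to 129573641, minus strand, GRCm38), had 9.77, 18.97, 19.7 and 14.5 CPM at 24 h, against 2.40, 1.48, 0 and 1.57 CPM at 3 h. All 24 h values lay above all 3 h values, and the 3 h values rest on 6 counts in all. Lck rose at 24 h (log2 fold change 3.32 ± 0.55, adjusted p = 0.00147) and was called in each of the 8 fits that left out 1 library and without both replicates 3 (2.94, adjusted p = 0.0137). Ptprcap, a partner of the phosphatase CD45, had 9.77, 37.03, 9.78 and 17.6 CPM at 24 h, against 2.40, 4.45, 0 and 3.14 CPM at 3 h. Its groups did not overlap either, and it rose (2.76 ± 0.71, adjusted p = 0.018), though it was not called without replicate 2 at 24 h (adjusted p = 0.063) or without both replicates 3 (2.78, adjusted p = 0.051). Trbc2, a constant region of the receptor beta chain that is nearly identical to Trbc1, so that counts of the pair are uncertain, was also called (3.17 ± 0.97, adjusted p = 0.0326), but its groups overlapped and it was not called without replicate 2, 3 or 4 at 24 h or replicate 2, 3 or 4 at 3 h (adjusted p from 0.0143 to 0.0843 over the 8 fits). The summed CPM of the 20 listed genes was 84.7, 191, 149.9 and 145 at 24 h, against 48.1, 29.7, 12.3 and 32.2 at 3 h.

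Among genes of T cell activation and co-inhibition, 1 of 5 tested was called higher (median 0.39). The median was 0.05 without both replicates 3, where none was called, and -0.07 when named genes were scaled among themselves. Lag3, an inhibitory receptor that activated T cells carry, had 14.7, 12.6, 17.2 and 14.5 CPM at 24 h, against 2.40, 1.48, 0 and 1.57 CPM at 3 h. The groups did not overlap, and Lag3 rose (3.21 ± 0.69, adjusted p = 0.0078); without both replicates 3 the change was of like size and not called (2.87, adjusted p = 0.0523). Of the cytotoxic effectors none of 3 tested was called (median 0.92, and 0.46 without both replicates 3). Gzmb, the protease granzyme B, had 22.8, 18.97, 26.4 and 16.6 CPM at 24 h, against 14.4, 10.4, 2.06 and 13.3 CPM at 3 h (1.001 ± 0.63, adjusted p = 0.252).

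Of 9 tested genes of naive lymphocyte trafficking and quiescence, 4 were called higher and none lower, with a median of 1.19 (0.997 without both replicates 3, where none was called, and 0.76 with none called among named genes alone). Tcf7, a transcription factor of naive and memory T cells, had 0, 12.6, 7.50 and 13.5 CPM at 24 h, against 0, 0, 0 and 0 CPM at 3 h. It had no count in any 3 h library and was at least 10.3-fold higher at 24 h against a floor of 3 counts over the 3 h group (adjusted p = 0.018), although replicate 1 at 24 h was also at 0. Tcf7 thus passed the low-count filter through other libraries and could only come out higher. Of its 267 counts at 24 h, 240 lay in replicate 3, and it was not tested among named genes alone. Foxp1, a quiescence factor of T and B cells, had 19.5, 38.8, 20.6 and 15.6 CPM at 24 h, against 6.41, 2.97, 2.06 and 10.99 CPM at 3 h (1.93 ± 0.50, adjusted p = 0.0187). S1pr1, the receptor that draws lymphocytes out of lymphoid tissue, had 13.03, 29.8, 16.1 and 22.8 CPM at 24 h, against 10.4, 1.48, 0 and 2.35 CPM at 3 h (2.28 ± 0.65, adjusted p = 0.0264). Foxp1 and S1pr1 did not overlap between the groups. Foxp1 was not called without replicate 2 at 24 h or replicate 3 at 3 h, and S1pr1 was not called without replicate 2 at 24 h or replicate 2, 3 or 4 at 3 h.

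Of 16 tested B cell genes 8 were called higher and none lower, with a median of 1.87, and without both replicates 3 the median was 1.74 and 5 were called. Ighm, the heavy chain of IgM (ENSMUSG00000076617.9, chromosome 12, 113418558 to 113422730, minus strand), had 127, 244, 117 and 228 CPM at 24 h, against 39.3, 32.6, 2.06 and 58.1 CPM at 3 h. Ighd, the heavy chain of IgD on mature naive B cells, had 32.6, 67.7, 41.9 and 43.6 CPM at 24 h, against 3.21, 8.90, 4.11 and 8.63 CPM at 3 h. In both genes every 24 h library lay above every 3 h library. The log2 fold changes were 2.38 ± 0.49, adjusted p = 0.00659 for Ighm and 2.89 ± 0.55, adjusted p = 0.00352 for Ighd. The 2 signalling chains of the B cell receptor rose as well, Cd79a (2.31 ± 0.53, adjusted p = 0.0111) and Cd79b (2.35 ± 0.53, adjusted p = 0.0101). All 4 were called in each fit that left out 1 library and without both replicates 3, where their adjusted p ran from 0.00947 for Ighm to 0.028 for Cd79b. The summed CPM of the 18 listed B cell genes was 431, 830.0, 427 and 750.4 at 24 h, against 153, 166, 20.6 and 223 at 3 h, so the smallest sum at 24 h was above the largest at 3 h. Of 10 tested plasma cell genes 1 was called, Txndc5, a disulfide isomerase of the secretory pathway (2.51 ± 0.76, adjusted p = 0.0307; not called without replicate 2 or 3 at 24 h or any 1 library at 3 h), and their median was 0.31 with all libraries, 0.13 without both replicates 3 and -0.16 among named genes alone.

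Of 11 tested genes of MHC class II presentation, which B cells, dendritic cells and macrophages express, 7 were called higher and none lower (median 1.48, and 1.19 with 1 call without both replicates 3). Among named genes alone the median was 1.03 and 1 of 11 was called. Ciita, the master activator of class II genes, had 32.6, 38.8, 16.02 and 26.99 CPM at 24 h, against 5.61, 2.97, 0 and 10.99 CPM at 3 h. The groups did not overlap and Ciita rose (2.31 ± 0.60, adjusted p = 0.0187), also without both replicates 3 (2.28, adjusted p = 0.0467). H2-Ob, a chain of the peptide-loading modulator H2-O, had 14.7, 74.96, 40.4 and 38.4 CPM at 24 h, against 11.2, 7.41, 0 and 11.8 CPM at 3 h (2.34 ± 0.59, adjusted p = 0.018). Cd74, the invariant chain that guards the class II groove, had 168, 439.8, 306 and 368 CPM at 24 h, against 129.8, 159, 12.3 and 155 CPM at 3 h (1.48 ± 0.49, adjusted p = 0.0419). H2-Eb1, a class II beta chain, had 124, 213, 145 and 199 CPM at 24 h, against 82.5, 86.00, 8.23 and 91.8 CPM at 3 h (1.32 ± 0.44, adjusted p = 0.0423). These 3 genes did not overlap between the groups, and in each the lowest library was replicate 3 at 3 h. H2-Ob was not called without replicate 2 at 24 h (adjusted p = 0.0506), Cd74 was not called without replicate 2, 3 or 4 at 24 h or any 1 library at 3 h, and the same held for H2-Eb1 without replicate 2, 3 or 4 at 24 h or any 1 library at 3 h. Without both replicates 3 none of the 3 was called.

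Of 18 tested genes of MHC class I, peptide loading and the immunoproteasome, 7 were called higher and none lower, with a median of 1.29 (0.91 and 3 calls without both replicates 3). H2-K1, a classical class I heavy chain, had 153, 250.2, 227 and 206 CPM at 24 h, against 60.9, 59.3, 8.23 and 79.3 CPM at 3 h. H2-Q7, a class I gene of the Q region, had 47.2, 71.3, 61.1 and 89.3 CPM at 24 h, against 13.6, 23.7, 6.17 and 15.7 CPM at 3 h. H2-T23, the nonclassical class I gene that encodes Qa-1, had 63.5, 37.03, 60.8 and 59.2 CPM at 24 h, against 16.8, 17.8, 2.06 and 19.6 CPM at 3 h. Each of these genes was higher in every 24 h library than in any 3 h library. The log2 fold changes were 1.98 ± 0.44, adjusted p = 0.00842 for H2-K1, 2.16 ± 0.45, adjusted p = 0.00732 for H2-Q7 and 1.89 ± 0.45, adjusted p = 0.0118 for H2-T23. H2-Q6 also rose (2.61 ± 0.55, adjusted p = 0.00732), but H2-Q6 and H2-Q7 are near-identical copies and the division of reads between them is uncertain. H2-K1, H2-Q6 and H2-Q7 were called without both replicates 3 and H2-T23 was not (1.58, adjusted p = 0.0519).

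The starts of these class I genes are shown because interferon acts on them through short elements just upstream. Windows of 250 bases before to 50 bases after the start were taken from RefSeq on GRCm38.p6 and are written 5′ to 3′ on the gene's strand. Capitals mark any match, on either strand, to 2 copies of GAAA with 2 bases of any kind between them, the core of the interferon-stimulated response element, or to TTTCACTTC, the core of the interferon consensus of classical class I genes, a motif added after the sequences were seen.
H2-K1 (chr17:34000298-34000597, minus strand): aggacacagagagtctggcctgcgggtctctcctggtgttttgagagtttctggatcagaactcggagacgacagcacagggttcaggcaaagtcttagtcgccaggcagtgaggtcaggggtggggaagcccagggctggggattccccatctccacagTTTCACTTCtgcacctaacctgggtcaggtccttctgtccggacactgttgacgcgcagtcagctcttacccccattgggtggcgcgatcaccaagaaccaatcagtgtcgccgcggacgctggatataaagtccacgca
H2-Q7 (chr17:35438905-35439204, plus strand): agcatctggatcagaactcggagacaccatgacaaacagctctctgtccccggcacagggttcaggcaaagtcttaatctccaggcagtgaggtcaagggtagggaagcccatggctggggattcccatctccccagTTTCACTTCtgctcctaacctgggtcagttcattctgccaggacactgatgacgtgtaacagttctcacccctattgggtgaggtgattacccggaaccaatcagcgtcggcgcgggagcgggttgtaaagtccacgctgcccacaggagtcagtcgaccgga
H2-T23 (chr17:36032652-36032951, minus strand): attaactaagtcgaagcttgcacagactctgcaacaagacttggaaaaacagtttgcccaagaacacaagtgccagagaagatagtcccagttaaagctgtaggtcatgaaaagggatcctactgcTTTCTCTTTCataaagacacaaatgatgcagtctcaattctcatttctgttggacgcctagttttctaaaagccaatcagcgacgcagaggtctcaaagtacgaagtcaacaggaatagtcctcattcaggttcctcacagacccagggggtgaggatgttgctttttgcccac
H2-T22 (chr17:36042693-36042992, minus strand): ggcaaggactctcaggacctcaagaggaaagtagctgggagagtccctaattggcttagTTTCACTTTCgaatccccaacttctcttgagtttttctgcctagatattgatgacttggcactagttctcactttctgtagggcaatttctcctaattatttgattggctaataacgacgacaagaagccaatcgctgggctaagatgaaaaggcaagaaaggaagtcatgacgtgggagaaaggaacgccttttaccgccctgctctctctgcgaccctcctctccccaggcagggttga
All 7 called class I genes had a window. The GAAA repeat was found in 3 of them (B2m, H2-T22 and H2-T23), against 3.44% of 32851 windows. TTTCACTTC was found in another 3 (H2-K1, H2-Q6 and H2-Q7), against 0.505% of windows, and neither was found in Calr. As TTTCACTTC was chosen after these windows were seen, its share beside that of all windows is not a test. No match of one motif overlapped one of the other in these genes. The match starts 90 bases before the gene start in H2-K1, 113 in H2-Q7, 124 in H2-T23 and 191 in H2-T22. H2-K1 has a second annotated start, not shown, for which the same match starts 104 bases before. A match describes these letters only, and the copies among class I genes share sequence by descent.

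Among interferon-stimulated genes and regulators 3 of 18 tested were called higher and none lower (median 1.14, and 0.78 with 2 calls without both replicates 3). Ifi27l2a, an interferon-induced mitochondrial protein (ENSMUSG00000079017.3, chromosome 12, 103442167 to 103443680, minus strand), had 24.4, 64.1, 31.5 and 33.2 CPM at 24 h, against 6.41, 1.48, 0 and 3.14 CPM at 3 h. Ly6e, an interferon-induced surface protein, had 48.8, 117, 86.99 and 103 CPM at 24 h, against 24.8, 20.8, 0 and 25.9 CPM at 3 h. Neither overlapped between the groups. Ifi27l2a rose by a log2 fold change of 3.53 ± 0.65, adjusted p = 0.00271, and Ly6e by 2.23 ± 0.52, adjusted p = 0.0111, and both were called in each fit without 1 library and without both replicates 3. Among the interferon-inducible GTPases none of 9 tested was called. Their median was 0.20 with all libraries and -0.48 without both replicates 3. Gbp2, a guanylate-binding protein of that family, had 11.4, 6.32, 25.3 and 6.23 CPM at 24 h, against 64.1, 26.7, 10.3 and 23.5 CPM at 3 h, with a log2 fold change of -1.26 ± 0.64, adjusted p = 0.162, and its highest 24 h value was in replicate 3.

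**Figure D3:**
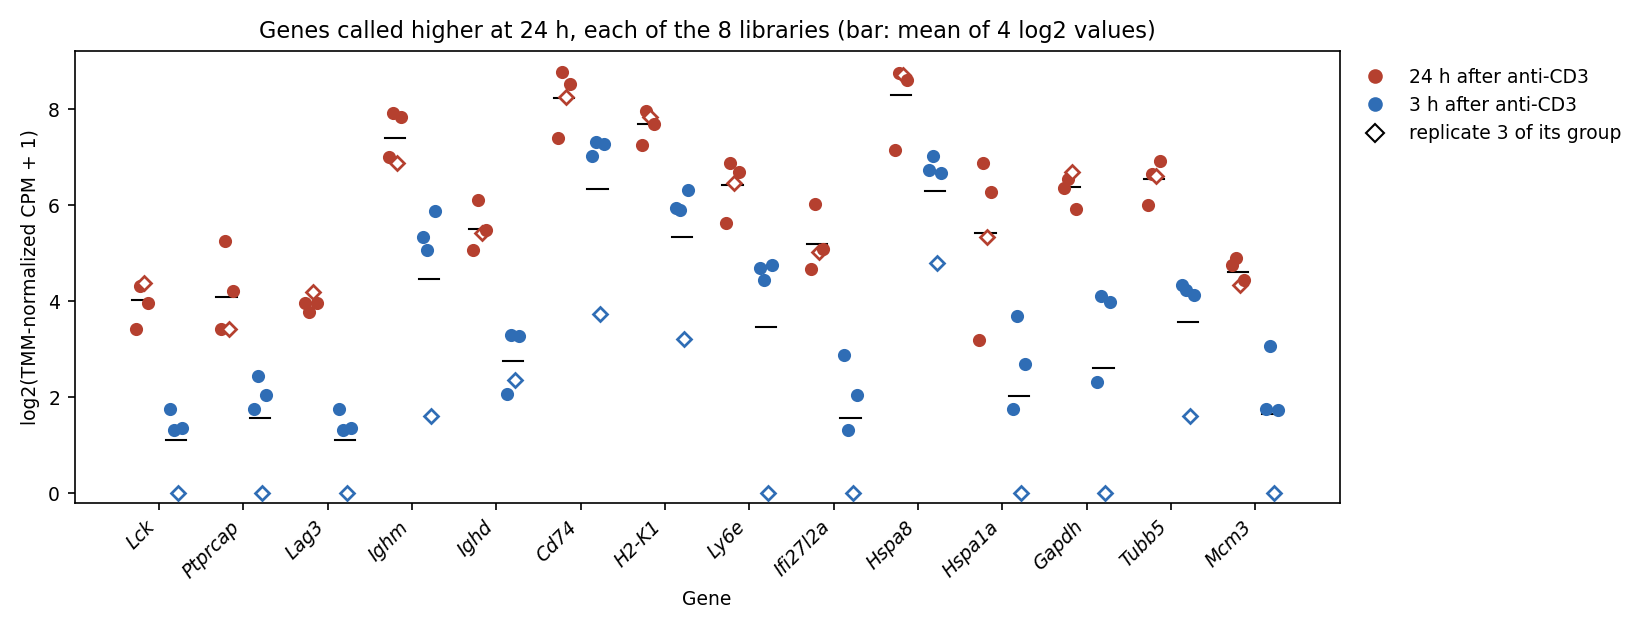
Levels of 14 genes called higher at 24 h, as log2(TMM-normalized CPM + 1), in each of the 8 libraries, with 24 h (red) left of 3 h (blue), the mean of 4 log2 values as a bar and replicate 3 of each group as an open diamond. In all but Hspa1a each 24 h library lies above each 3 h library, and replicate 3 at 3 h is the lowest point of all but Ighd.

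Of 15 tested heat shock proteins and chaperones 9 were called higher and none lower, with a median of 1.74. Hspa8, the constitutive HSC70 chaperone, had 142, 429.9, 420.1 and 391 CPM at 24 h, against 105, 129, 26.7 and 101 CPM at 3 h. Hsp90ab1, the constitutive HSP90 beta, had 81.4, 231, 230.1 and 211 CPM at 24 h, against 55.3, 78.6, 6.17 and 79.3 CPM at 3 h. Hspa1a, the stress-inducible HSP70, whose reads can be shared with its near copy Hspa1b, had 8.14, 117, 39.6 and 76.8 CPM at 24 h, against 2.40, 11.9, 0 and 5.49 CPM at 3 h. Replicate 1 at 24 h was the lowest 24 h library for each, and for Hspa1a it lay within the range of the 3 h values. Their log2 fold changes were 1.92 ± 0.43, adjusted p = 0.00853 for Hspa8, 1.76 ± 0.45, adjusted p = 0.018 for Hsp90ab1 and 3.59 ± 0.94, adjusted p = 0.0187 for Hspa1a. The co-chaperone Dnaja1 (2.06 ± 0.48, adjusted p = 0.0111) and the HSP110 protein Hsph1 (2.57 ± 0.62, adjusted p = 0.0144) rose as well. Without both replicates 3 the median was 1.35 and Hspa8 alone was called (1.57, adjusted p = 0.0461); Hspa1a was also not called without replicate 2 at 24 h (adjusted p = 0.0503).

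Of 10 tested glycolytic enzymes 5 were called higher and none lower (median 1.51, and 0.94 with 2 calls without both replicates 3). Gapdh, the glyceraldehyde phosphate dehydrogenase, had 81.4, 92.1, 103 and 60.2 CPM at 24 h, against 4.01, 16.3, 0 and 14.9 CPM at 3 h. Gpi1, the phosphoglucose isomerase, had 26.1, 31.6, 49.2 and 42.6 CPM at 24 h, against 8.82, 4.45, 2.06 and 8.63 CPM at 3 h. Tpi1, the triose phosphate isomerase, had 11.4, 15.4, 48.5 and 25.9 CPM at 24 h, against 7.21, 0, 0 and 4.71 CPM at 3 h. None of the 3 overlapped between the groups. The log2 fold changes were 3.19 ± 0.63, adjusted p = 0.00523 for Gapdh, 2.53 ± 0.50, adjusted p = 0.00499 for Gpi1 and 2.84 ± 0.64, adjusted p = 0.00979 for Tpi1, and without both replicates 3 Tpi1 was not called (2.03, adjusted p = 0.0765). Gapdh has many processed pseudogenes, so its counts depend on how reads were divided.

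Tubulins are of interest because propyzamide acts on microtubules in plants. Here both groups had the herbicide, so the comparison is of time only. Of 9 tested tubulins and microtubule proteins 2 were called higher and none lower (median 1.46, and 0.82 without both replicates 3). Tubb5, a beta tubulin of dividing and immune cells (ENSMUSG00000001525.10, chromosome 17, 35833921 to 35838306, minus strand), had 63.5, 99.3, 97.3 and 120.4 CPM at 24 h, against 19.2, 17.8, 2.06 and 16.5 CPM at 3 h. Tuba1b, an alpha tubulin with close paralogs, had 42.3, 79.5, 103 and 101 CPM at 24 h, against 34.5, 22.2, 0 and 22.8 CPM at 3 h. Neither overlapped. Tubb5 rose (2.70 ± 0.46, adjusted p = 0.00175) and was called without both replicates 3 (2.44, adjusted p = 0.00736), while Tuba1b (1.96 ± 0.51, adjusted p = 0.0187) was not (1.52, adjusted p = 0.0606). With vehicle, the log2 fold change of Tubb5 was 1.49 ± 0.45, not called, and the difference between the treatments was 1.21 ± 0.63, not called by edgeR.

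DNA replication and proliferation genes were called higher in 5 of 13 tested and lower in none (median 1.72, and 1.37 with 2 calls without both replicates 3). Among called members, Mcm3, Mcm7 and Mcm4 held 11, 6 and 2 counts at 3 h and passed the low-count filter through other libraries. The direction and median of this list are thus partly set by that filter. Mcm3, a subunit of the MCM2-7 replicative helicase, had 26.1, 28.9, 19.3 and 20.8 CPM at 24 h, against 2.40, 7.41, 0 and 2.35 CPM at 3 h. Mcm7, another subunit, had 9.77, 20.8, 15.02 and 12.5 CPM at 24 h, against 2.40, 0, 2.06 and 1.57 CPM at 3 h. Both were non-overlapping and both rose (2.93 ± 0.68, adjusted p = 0.0113 for Mcm3 and 3.17 ± 0.69, adjusted p = 0.0078 for Mcm7). Mcm4, a further subunit, had 4, 13, 444 and 10 counts at 24 h, against 1, 1, 0 and 0 counts at 3 h. These sum to 471 counts at 24 h, against 2 counts at 3 h, a ratio of 24.99 in normalized level with a 95% counting interval of 6.88 to 207, and 444 of the 471 lay in replicate 3. Mcm4 was not called without replicate 4 at 3 h (adjusted p = 0.0525) or without both replicates 3 (3.72, adjusted p = 0.0745). Pold4, the small subunit of DNA polymerase delta and no member of the list, had 4.88, 15.4, 6.15 and 11.4 CPM at 24 h, against 0, 0, 0 and 0 CPM at 3 h. It had no count at 3 h and was at least 11.6-fold higher at 24 h against the same floor of 3 counts over the group (adjusted p = 0.00278), and it was called in each fit without 1 library. With no count at 3 h, Pold4 passed the low-count filter through other libraries and could only come out higher. Of its 228 counts at 24 h, 197 lay in replicate 3, and it was not tested among named genes alone.

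Of 78 tested cytosolic ribosomal protein genes 21 were called higher and none lower, and all 78 fold changes were positive (median 1.24, and 1.06 with 3 calls without both replicates 3). Rpl4, a protein of the large subunit, had 135, 211, 185 and 209 CPM at 24 h, against 80.1, 83.04, 10.3 and 73.00 CPM at 3 h (1.56 ± 0.39, adjusted p = 0.017). The summed CPM of the family was 4650.1, 9544, 5671 and 7170.0 at 24 h, against 3524, 3399, 339 and 3633 at 3 h; replicate 3 at 3 h was the lowest of the 8. When named genes were scaled among themselves 1 of 78 was called and the median was 0.79. Many ribosomal protein genes have pseudogenes, so single members are uncertain. Of 28 tested nuclear-encoded genes of oxidative phosphorylation 4 were called higher and none lower (median 1.02, and 0.47 with none called without both replicates 3). Over all named protein-coding genes 12.4% were called higher, with medians of 0.73 and 0.43. The share of this list is near that background, so it is not read as a result about the family. Of 16 tested mitochondrially encoded genes 2 were called higher (median 0.71, and 0.67 with none called without both replicates 3), a share also near that of named genes. One of them, mt-Nd5, a subunit of complex I, had 974, 651, 583 and 1020.3 CPM at 24 h, against 469, 546, 193 and 339 CPM at 3 h (1.06 ± 0.32, adjusted p = 0.0296), and was not called without replicate 1 or 4 at 24 h or replicate 3 or 4 at 3 h or without both replicates 3 (adjusted p = 0.0565).

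Immediate early genes are the first to respond to receptor triggering. Of 13 tested 3 were called higher and none lower (median 1.01, and 0.46 with none called without both replicates 3). Over named genes these medians were 0.73 and 0.43. Jun had 34.2, 78.6, 77.4 and 65.4 CPM at 24 h, against 37.7, 31.1, 6.17 and 11.8 CPM at 3 h (1.53 ± 0.43, adjusted p = 0.0247). Btg2, an antiproliferative early gene, had 42.3, 84.9, 59.8 and 46.7 CPM at 24 h, against 24.8, 28.2, 4.11 and 16.5 CPM at 3 h (1.63 ± 0.50, adjusted p = 0.0324). Egr1 had 11.4, 34.3, 61.9 and 42.6 CPM at 24 h, against 15.2, 23.7, 2.06 and 14.1 CPM at 3 h (1.45 ± 0.50, adjusted p = 0.0468). Btg2 did not overlap, and Jun and Egr1 did, in both cases through replicate 1 at 24 h. Jun was not called without replicate 2 at 24 h or replicate 3 or 4 at 3 h, Btg2 was not called without replicate 2 or 3 at 24 h or replicate 3 or 4 at 3 h, and Egr1 was not called without replicate 2, 3 or 4 at 24 h or replicate 1, 3 or 4 at 3 h. None of 9 tested NF-kappaB subunits and feedback genes was called, with a median of 0.76 (0.06 without both replicates 3).

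The genes with the smallest p outside these lists included regulators of leukocytes. Arhgap45, a GTPase activating protein of blood cells (ENSMUSG00000035697.14, chromosome 10, 80016653 to 80031472, plus strand), had 19.5, 67.7, 28.8 and 45.7 CPM at 24 h, against 4.81, 2.97, 0 and 3.14 CPM at 3 h (3.69 ± 0.58, adjusted p = 0.00115). Sash3, an adaptor of lymphocyte receptors, had 16.3, 23.5, 18.9 and 22.8 CPM at 24 h, against 1.60, 1.48, 0 and 3.92 CPM at 3 h (3.27 ± 0.60, adjusted p = 0.00271). Shisa5, a p53-induced endoplasmic reticulum protein, had 58.6, 83.99, 65.1 and 85.1 CPM at 24 h, against 17.6, 14.8, 0 and 10.99 CPM at 3 h (2.65 ± 0.48, adjusted p = 0.00271). None of the 3 overlapped, and all were called in each fit without 1 library and without both replicates 3 (3.60, adjusted p = 0.0039 for Arhgap45, 3.09, adjusted p = 0.0144 for Sash3 and 2.43, adjusted p = 0.00736 for Shisa5). Malat1, a nuclear noncoding RNA named here after its value was seen, had the smallest p of all genes (3.49 ± 0.55, adjusted p = 0.00115). The rule for named genes gave 113 genes, of which 88 were called, 46 of them in all 8 fits without 1 library and 32 without both replicates 3.

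With all tested genes scaled together, fewer named genes were lower at 24 h (42) than higher (308). Scaled among themselves, 61 were lower and 67 higher, and without both replicates 3 these were 30 and 29. With only the 8 compared libraries in the fit, which takes no spread from the other groups, 0 of 2038 tested genes were lower and 101 higher. Muc16, Rock1, Cep170 and Nek4 were tested there and not called, and Ccl24, Chil3, Zg16 and Tff3 were not among the genes tested. Goblet and myeloid products were among the lower genes. Ccl24, the eosinophil chemokine eotaxin-2 (ENSMUSG00000004814.10, chromosome 5, 135569937 to 135573049, minus strand), had 0, 0.903, 1.22 and 1.04 CPM at 24 h, against 37.7, 23.7, 6.17 and 14.9 CPM at 3 h. The highest 24 h value lay below the lowest 3 h value, in libraries with 0, 1, 39 and 1 counts at 24 h, against 47, 16, 3 and 19 counts at 3 h. Ccl24 fell at 24 h (-4.31 ± 0.91, adjusted p = 0.00732), also without both replicates 3 (-4.89, adjusted p = 0.0281), and it was called in each fit without 1 library. It was the only one of 10 tested genes of inflammatory myeloid cells and chemokines to be called, while 9 of 10 fold changes were negative (median -1.05, and -1.55 without both replicates 3). Chil3, a chitinase-like protein of alternatively activated macrophages and no member of the list, had 6.51, 0, 3.69 and 0 CPM at 24 h, against 40.1, 29.7, 2.06 and 7.06 CPM at 3 h. Its groups overlapped and it fell (-2.92 ± 0.81, adjusted p = 0.0247), also without both replicates 3 (-3.85, adjusted p = 0.0456) but not without replicate 2 or 4 at 24 h or replicate 1 at 3 h. Apoe, an apolipoprotein of resident macrophages, was higher (1.47 ± 0.48, adjusted p = 0.0415). It was not called without replicate 2, 3 or 4 at 24 h or replicate 3 or 4 at 3 h. Apoe was the 1 called of 10 genes of the resident macrophage list (median 0.76, and 0.50 with none called without both replicates 3). These medians are near those of all named genes, 0.73 and 0.43.

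Of 8 tested goblet cell genes 2 were called lower and none higher (median -0.45, and -1.09 with none called without both replicates 3). Zg16, a lectin-like protein of goblet cell granules, had 0, 0, 1.78 and 5.19 CPM at 24 h, against 28.8, 10.4, 0 and 25.1 CPM at 3 h. Tff3, the trefoil peptide of goblet cells, had 0, 0.903, 3.03 and 2.08 CPM at 24 h, against 19.2, 2.97, 4.11 and 7.85 CPM at 3 h. Both overlapped between the groups. They fell (-3.22 ± 0.84, adjusted p = 0.0189 for Zg16 and -2.17 ± 0.74, adjusted p = 0.0451 for Tff3). Zg16 was not called without replicate 3 at 24 h or replicate 4 at 3 h, and Tff3 was not called without replicate 2, 3 or 4 at 24 h or replicate 1, 3 or 4 at 3 h. Muc16, a membrane mucin, had 14.7, 9.93, 10.6 and 8.30 CPM at 24 h, against 24.04, 53.4, 41.1 and 30.6 CPM at 3 h. Muc16 did not overlap and fell (-1.78 ± 0.36, adjusted p = 0.00557), also without both replicates 3 (-1.68, adjusted p = 0.0336). It was not called with only the 8 compared libraries in the fit.

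Rock1, Cep170 and Nek4 were also among the 15 lower named genes of smallest p. Rock1, a kinase of the actin cytoskeleton, had 89.6, 86.7, 51.6 and 110.0 CPM at 24 h, against 171, 165, 187 and 198 CPM at 3 h. Cep170, a protein of the centriole appendages, had 9.77, 9.93, 6.47 and 14.5 CPM at 24 h, against 39.3, 31.1, 43.2 and 24.3 CPM at 3 h. Nek4, a NIMA-family kinase, had 11.4, 13.5, 9.15 and 11.4 CPM at 24 h, against 31.3, 38.6, 24.7 and 25.9 CPM at 3 h. No group overlapped in the 3 genes. They fell (-1.11 ± 0.28, adjusted p = 0.018 for Rock1, -1.81 ± 0.45, adjusted p = 0.0165 for Cep170 and -1.43 ± 0.37, adjusted p = 0.018 for Nek4) and were called in each fit without 1 library, but not without both replicates 3 (-0.86, adjusted p = 0.0671 for Rock1, -1.41, adjusted p = 0.0928 for Cep170 and -1.33, adjusted p = 0.0637 for Nek4). Libraries made by SMART-seq2 do not mark strand, so reads of genes that overlap one of these on the other strand would be counted with it.

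**Figure D4:**
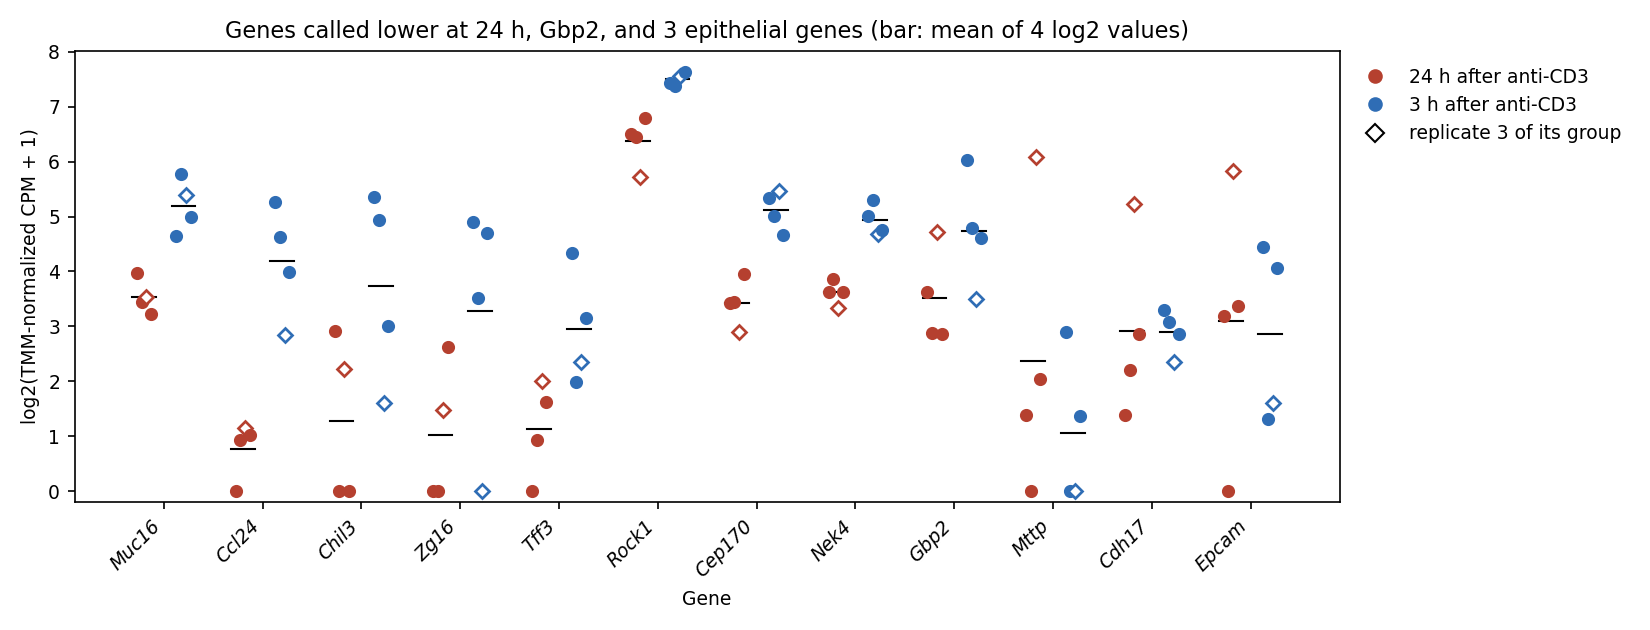
Levels as log2(TMM-normalized CPM + 1) of 8 genes called lower at 24 h, of Gbp2, which was not called, and of the epithelial genes Mttp (called higher), Cdh17 and Epcam (not called), in each of the 8 libraries, with 24 h (red) left of 3 h (blue), the mean of 4 log2 values as a bar and replicate 3 of each group as an open diamond. Replicate 3 at 24 h is at 66.4 CPM of Mttp, 36.4 CPM of Cdh17 and 55.8 CPM of Epcam, above every other library.

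Absorptive enterocyte genes depended on 1 library. The summed CPM of the 28 listed genes was 43.96, 31.6, 776 and 35.3 at 24 h, against 134, 104, 34.98 and 139.7 at 3 h. Replicate 3 at 24 h was the highest of the 8 libraries, and the other 24 h libraries were below replicates 1, 2 and 4 at 3 h. With all libraries all 11 tested genes had a positive fold change (median 1.20) and 1 was called higher. Without both replicates 3 all 11 were negative (median -2.63) and none was called, and without replicate 3 at 24 h alone the median was -2.30 and 1 gene was called lower. The called gene, Mttp, which loads lipid onto chylomicrons, had 1.63, 0, 66.4 and 3.11 CPM at 24 h, against 6.41, 0, 0 and 1.57 CPM at 3 h (3.02 ± 1.02, adjusted p = 0.0445; not called without replicate 3 at 24 h or replicate 2, 3 or 4 at 3 h), and without both replicates 3 its log2 fold change was -0.88 (adjusted p = 0.669). Fabp1, Apoa4 and Vil1, further markers of enterocytes, had 12, 0 and 11 counts in the other 3 libraries at 24 h, and 92, 14 and 17 counts in replicates 1, 2 and 4 at 3 h. The part of enterocyte RNA in the other changes of replicate 3 was not tested.

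The wider epithelial list moved in the same manner. Its 16 tested genes of identity, junctions and crypt had a median of 0.40 with all libraries and -1.09 without both replicates 3, with none called either way, and -0.14 when named genes were scaled among themselves. The summed CPM was 84.7, 86.7, 787 and 203 at 24 h, against 354, 184, 61.7 and 243 at 3 h. Cdh17, an intestinal cadherin, had 1.63, 3.61, 36.4 and 6.23 CPM at 24 h, against 8.82, 7.41, 4.11 and 6.28 CPM at 3 h (1.03 ± 0.63, adjusted p = 0.249). Epcam, a pan-epithelial adhesion protein, had 8.14, 0, 55.8 and 9.34 CPM at 24 h, against 20.8, 1.48, 2.06 and 15.7 CPM at 3 h (0.88 ± 0.77, adjusted p = 0.425). Paneth cell genes, including the alpha-defensins, which are close paralogs and are uncertain one by one, gave no call in 17 tested (median 0.41, and 0.53 without both replicates 3). Lyz1, the lysozyme of Paneth cells, had 348, 164, 103 and 373 CPM at 24 h, against 244, 99.4, 59.7 and 128 CPM at 3 h (0.87 ± 0.39, adjusted p = 0.117). None was called among 2 tested genes of dendritic cells (median 0.40, and -0.08 without both replicates 3), 2 of red blood cells (-0.10, and -1.32 without both) and 1 of endothelium (0.60, and 0.21 without both). No gene of smooth muscle and fibroblasts, of enteroendocrine and tuft cells, of mast cells or of the aryl hydrocarbon receptor and its targets (0 of 9) passed the filter on low counts.

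**Figure D5:**
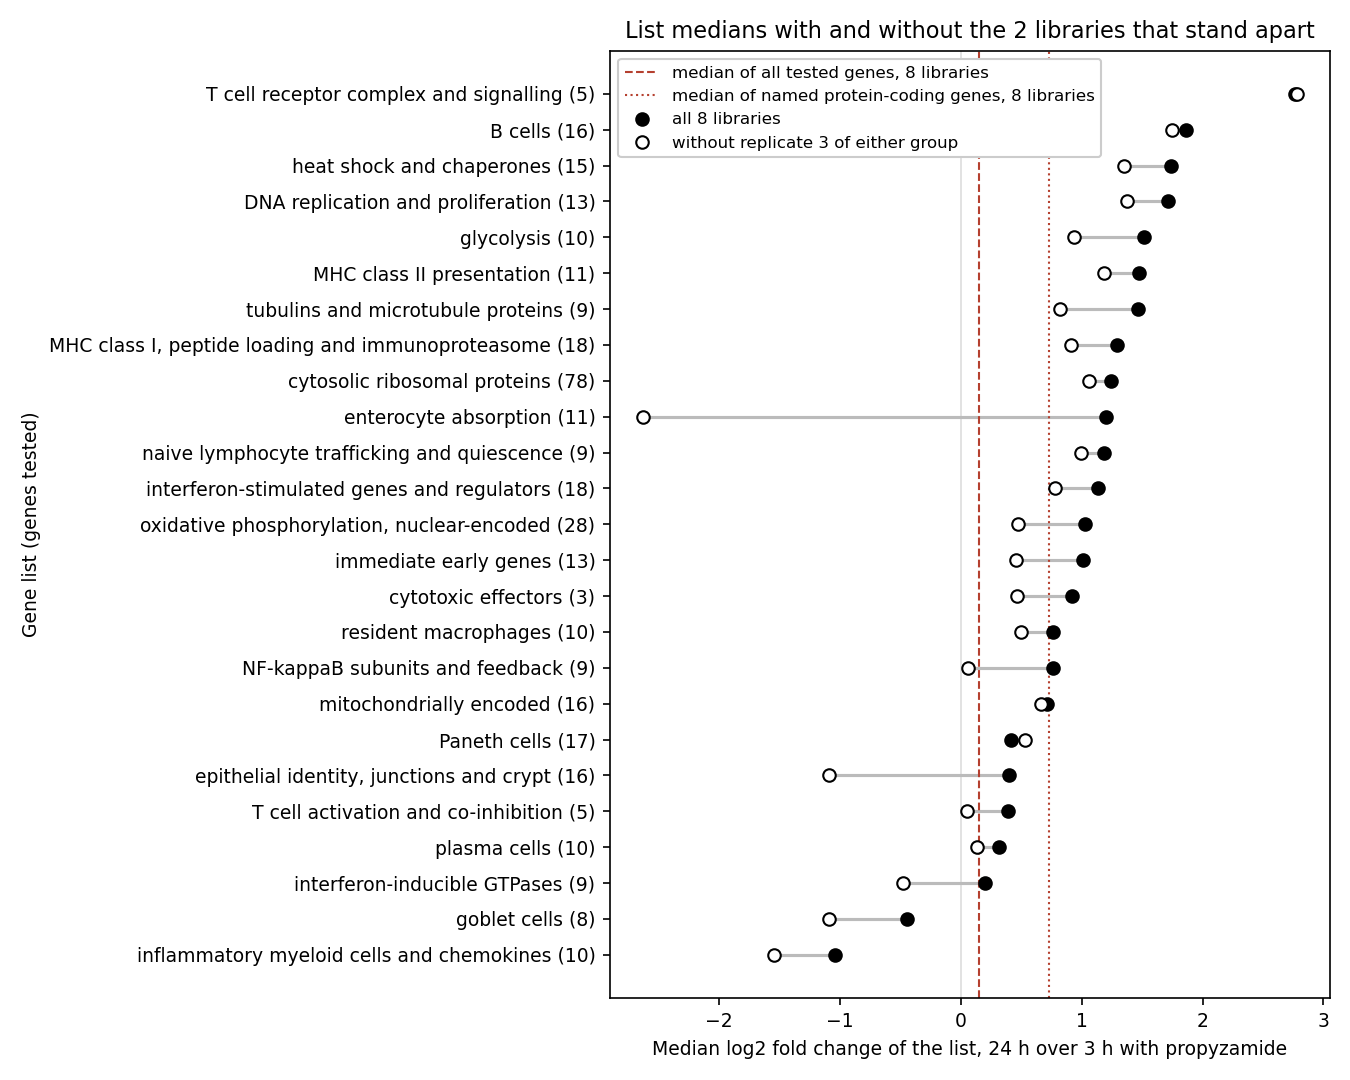
Median log2 fold change of 24 h over 3 h with propyzamide (x axis) for each gene list with at least 3 tested genes (number in brackets), with all 8 libraries (filled) and without both replicates 3 (open); red lines are the medians of all tested genes (0.15, dashed) and of named protein-coding genes (0.73, dotted) with 8 libraries. The T cell receptor and B cell lists stay near 2.76 and 1.87, while the enterocyte list moves to -2.63 and the epithelial list to -1.09. The T cell receptor list holds only the 5 of 20 genes that passed the filter on low counts.

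The same 2 times with vehicle gave no called gene (0% of 3799, with 462 at an unadjusted p under 0.05), and the difference of the time change between propyzamide and vehicle gave none by edgeR (0%, with 233 at an unadjusted p under 0.05) and 1 by DESeq2 (27 by edgeR with no filter on low counts). With vehicle the log2 fold change was 1.96 ± 0.54 for Lck, 1.46 ± 0.48 for Ighm, 1.46 ± 0.44 for H2-K1, 3.15 ± 0.63 for Ifi27l2a and -4.12 ± 1.002 for Ccl24. The tests of the difference gave 0.39 ± 0.91, adjusted p = 0.946 for Ifi27l2a and -0.18 ± 1.45, adjusted p = 0.985 for Ccl24. The smallest p of the difference was that of Muc16 (difference -2.24 ± 0.50, adjusted p = 0.426), whose log2 fold change with vehicle was 0.46 ± 0.35. The next was that of Myl12b, a myosin regulatory light chain with a close paralog (4.78 ± 1.19, adjusted p = 0.627), which had 514 counts at 24 h, against 2 counts at 3 h with propyzamide (ratio 27.3 in normalized level, 95% counting interval 7.51 to 226). Of the 514 counts 485 lay in replicate 3, and both counts at 3 h lay in replicate 1. Without both replicates 3 its time change with propyzamide was not called (3.88, adjusted p = 0.0516). The median over the enterocyte list was -2.59 with vehicle, beside 1.20 with propyzamide in all libraries and -2.63 without both replicates 3. Vehicle libraries at 24 h and at 3 h differ in the i5 index of their names, while the 2 propyzamide groups share theirs, so index and time cannot be told apart with vehicle.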

How the data were processed

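Bulk SMART-seq2 RNA-seq libraries were quantified per transcript by the authors with kallisto on GRCm38, per the submitters' processing notes (version not given in the sources used here). The deposited tables hold estimated counts, TPM and effective transcript lengths for 142604 transcripts. The deposited estimated counts were summed here to 55401 genes by gene ID and rounded. The deposited TPM and effective lengths served alternatives only. Depth was 438519 to 9812102 counts in the 8 libraries compared.

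Genes passing filterByExpr (3799) were scaled by TMM on library sizes summed over tested genes and fitted over all 24 libraries with edgeR 4.0.16 (quasi-likelihood F test, limma 3.58.1, R 4.3.3), with Benjamini-Hochberg adjustment and calls at 0.05 or less. The common dispersion was 0.215 (biological coefficient of variation 46.4%). Errors of log2 fold changes are standard errors. Shares were compared by two-sided exact permutation tests (Python 3.11.15, scipy 1.17.1), and figures drawn with matplotlib 3.10.9. The fit was first run on simulated counts drawn from a shared mean profile. That run did not cover a library of unlike composition, such as replicate 3 at 24 h. Genes with no count at 3 h are given against a floor of 3 counts, and 95% count ratio intervals are exact. Both cover counting error only. Coordinates are GRCm38 from GENCODE M21.

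Genes were named by a rule: the 15 higher and 15 lower named protein-coding genes of smallest p with a log2 fold change of at least 1, and from each list up to 5 called members or, with none called, 3. Members and lists were chosen with earlier results of these data known. Alternatives were RLE scaling, no filter, only the 8 libraries, DESeq2 1.42.0, limma-voom with sample weights, limma-trend on log2(TPM + 1), a transcript length offset, named genes only, thinning of the deepest library, and leaving out libraries. A few results are not reported here.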

Additional observations from a re-analysis of the deposited data

Results flagged for a closer look

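In groups of 4, a value was singled out where its gap to the nearest library exceeded Dixon's 95% critical value as a share of the group's range, which chance does in about 1 in 20 groups. Of 178 values, 24 were singled out, 9 in replicate 3 at 24 h and 9 in replicate 3 at 3 h.

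At 24 h, replicate 3 had 9812102 total counts, 30.5% of counts in named protein-coding genes and 25.9% in Gm10800 and Gm10801. Its summed CPM was 256.6 for interferon-inducible GTPases (115.6 to 128.7 in the others), 775.7 for enterocyte absorption (31.6 to 44.0) and 787.1 for epithelial genes (84.7 to 203.4). Single epithelial genes stood apart in it at 66.4 CPM (Mttp), 36.4 CPM (Cdh17) and 55.8 CPM (Epcam). Replicate 1 at 24 h was low in the cytotoxic list, at 73.3 summed CPM, in Hspa8, at 141.7 CPM, and in Hsp90ab1, at 81.4 CPM. Replicate 2 at 24 h was low in H2-T23, at 37.0 CPM.

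At 3 h, replicate 3 was low in summed CPM of naive lymphocyte genes (24.7, against 134.9 to 155.5 in the others), MHC class II (39.1, against 766.1 to 869.7), heat shock genes (67.9, against 414.4 to 437.4) and ribosomal proteins (339.5, against 3399 to 3633). It was also low in Tubb5 (2.06 CPM), H2-Q6 (0 CPM), H2-T23 (2.06 CPM), H2-Eb1 (8.23 CPM) and Rpl4 (10.3 CPM). Replicate 1 at 3 h was the one library with counts of Trbc2 (5.61 CPM) and of Myl12b (1.60 CPM).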

How the results depend on the processing

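The number of called genes moved with most choices. In place of 579 called genes (327 higher, 252 lower), RLE scaling gave 891 (694 higher), DESeq2 1044 (794 higher), no filter on low counts 153 (126 higher, 27 lower), the 8 libraries alone 101 (101 higher, 0 lower), the length offset 344 (182 higher, 162 lower), named genes alone 128 (67 higher, 61 lower) and leaving out both replicates 3 62 (50 higher, 12 lower). Limma-trend gave 104 lower. With the 8 libraries alone, 650 genes had an unadjusted p under 0.05. Named genes alone without both replicates 3, an alternative chosen after seeing the data, gave 59 (29 higher, 30 lower). Leaving out 1 library gave 182 to 873 called, 104 to 419 higher and 38 to 454 lower. The difference between propyzamide and vehicle, 0 by edgeR, was 27 with no filter and 1 by DESeq2.

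The difference in the share of Gm10800 and Gm10801, -4.90 percentage points, was 2.65 without both replicates 3 and ran from -7.62 (without replicate 1 at 24 h) to 2.25 (without replicate 3 at 24 h) over fits without 1 library. The log2 fold change of Mttp, 3.02 with all libraries, was -0.88 without both replicates 3, ran from -0.65 (without replicate 3 at 24 h) to 4.63 (without replicate 1 at 3 h) over fits without 1 library, and was -1.27 with named genes alone and both left out. The cause was not tested. Over the alternatives for named genes, 1613 values kept their direction and call, 425 kept the direction and lost the call, 24 gained it, and the 3 values of Mttp below 0 turned round. The other 41 values are of genes that were not called and took the opposite sign in at least 1 alternative, namely Srgn, Gbp4, Cdh17, Epcam, Irf8, Cst3, Pecam1, Hbb-bs, Hba-a2 and Olfm4, so no direction is drawn from these. At 17887 named-gene counts, replicate 3 at 3 h limits what low genes can show. No paired analysis was possible because the labels carry no replicate numbers.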
